A study of Homo sapiens with 12 samples.

Results

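Transcripts of 10 genes that are commonly followed in damaged kidney tubule, among 19775 genes with a probe set of their own on the array, were examined in a human tubule cell line exposed to the compound that the labels call Aa. These kidney injury marker genes were HAVCR1, LCN2, CLU, SPP1, CD44, KRT20, VCAM1, SOX9, VIM and ANXA2. All probe sets (groups of short probes for one transcript) that the array annotation mapped to exactly 1 of these 10 genes were taken, which gave 31 of the 54675 probe sets on the array. Of the 31, 22 had a mean of 4 or more on the log2 scale across the 12 arrays, the filter used here, and were tested, and 9 lay below it with means of 2.21 to 3.55. The 22 covered 9 of the 10 genes. The only LCN2 probe set was among the 9.

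HK-2 cells are an immortalised line derived from human proximal tubule, grown here to near confluence in a defined medium that held EGF, insulin, transferrin and hydrocortisone. The 4 groups of 3 arrays were cells given a low dose of Aa for 24 h, cells given only the control vehicle for 24 h, cells given a low dose of Aa for 48 h and cells given only the control vehicle for 48 h. The wider project looked for expression signatures of kidney toxicity with several agents, and the question here is how markers of tubule injury stood in cells exposed to low-dose Aa. The labels do not state the dose in numbers, what Aa abbreviates or what the vehicle was, and all 4 groups are 1 cell line in culture, so no other kidney or blood cell is present by design.

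When tubule cells are damaged they lose parts of their mature programme, spread and divide to cover the gap, and begin to make proteins that are barely made in a healthy tubule. Some of these proteins are shed or secreted and are measured in urine (the products of HAVCR1, LCN2, CLU and SPP1). Others mark a dedifferentiated or adhesive cell state (CD44, VCAM1, SOX9, VIM, ANXA2, KRT20). The control cells here are cultured cells too, not healthy tubule.

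Values are deposited GCRMA values on a log2 scale, given for replicates 1, 2 and 3 in that order. Changes are log2 differences with the standard error (SE) of a limma model over all 12 arrays, n = 3 arrays per group. A probe set is said to have risen or fallen where its limma p, adjusted over all 22515 probe sets tested by the Benjamini-Hochberg method, was under 0.05. Arrays of the same replicate number deviated together. A fit with the replicate number as a block was also made, as planned, and its value is given where it changes a call. In RNA from whole cultures, fewer cells making a transcript and less transcript per cell cannot be told apart.

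Arrays of a group correlated with r of 0.994 to 0.997 across probe sets. Of 9 proximal tubule markers, only SLC3A1, an amino acid transporter subunit, passed the filter. LRP2, CUBN, SLC34A1, SLC5A2, AQP1, GGT1, ANPEP and MME had means of 2.09 to 3.03. The renal epithelial genes PAX8, CDH6, KRT8, KRT18, EPCAM and CDH1 all passed it, 6 of the 7 with a probe set. All 4 distal nephron, all 4 endothelial and all 4 leukocyte markers with a probe set stayed below the filter, so the line carried epithelial markers but few markers of a mature proximal tubule. Of 5 fibroblast markers COL1A1 and DCN passed it. The summed linear level of the 5 ran from 3317 to 4475 in Aa cells and from 3886 to 5671 in control cells at 24 h, and from 2391 to 3655 in Aa cells and from 3766 to 4515 in control cells at 48 h, and its part in the results below was not tested. This sum is carried by DCN, with a mean of 11.84 on the log2 scale, beside 8.10 for COL1A1.

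Most of the injury marker probe sets did not pass the threshold with low-dose Aa. After 24 h, 1 of the 22 tested probe sets fell and 0 rose (4.55%, against 22.6% of all probe sets tested, of which 11.6% rose and 11% fell), and the one that fell was KRT20. After 48 h, 1 rose and 2 fell (13.6%, against 33.2% of all probe sets tested, of which 16.3% rose and 16.9% fell): CD44 rose, and KRT20 and VCAM1 fell. All 3 Aa arrays lay on one side of all 3 control arrays for 3 of 22 probe sets at 24 h (background 39.8%) and for 4 of 22 at 48 h (background 45.2%). In all 3 replicate pairs the Aa array was the lower one for 14 of 22 at 24 h (background 36.6%) and 8 of 22 at 48 h (background 36.3%), and the higher one for 1 (background 30.4%) and 5 (background 35.3%). Of the 14, 7 were probe sets of CD44, which share a gene. The median change of the 22 was -0.17 at 24 h and -0.02 at 48 h, beside -0.02 and -0.00 over all probe sets tested. With the replicate block 0 rose and 8 fell at 24 h, where 39.5% of all probe sets passed, and 3 rose and 3 fell at 48 h, where 50.3% passed. The share called was below that of the whole array when probe sets were counted, of which 8 of 22 were of CD44, and at 24 h it was near it with the block. Counted on the brightest probe set of each gene, 1 of 9 genes was called at 24 h (11.1%, against 22.3% of all genes) and 3 of 9 at 48 h (33.3%, against 35.8%), so at 48 h the share of genes was near the background. One of the 8 falls was KRT20, 6 were of CD44 and 1 was of SOX9.

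**Figure D1:**
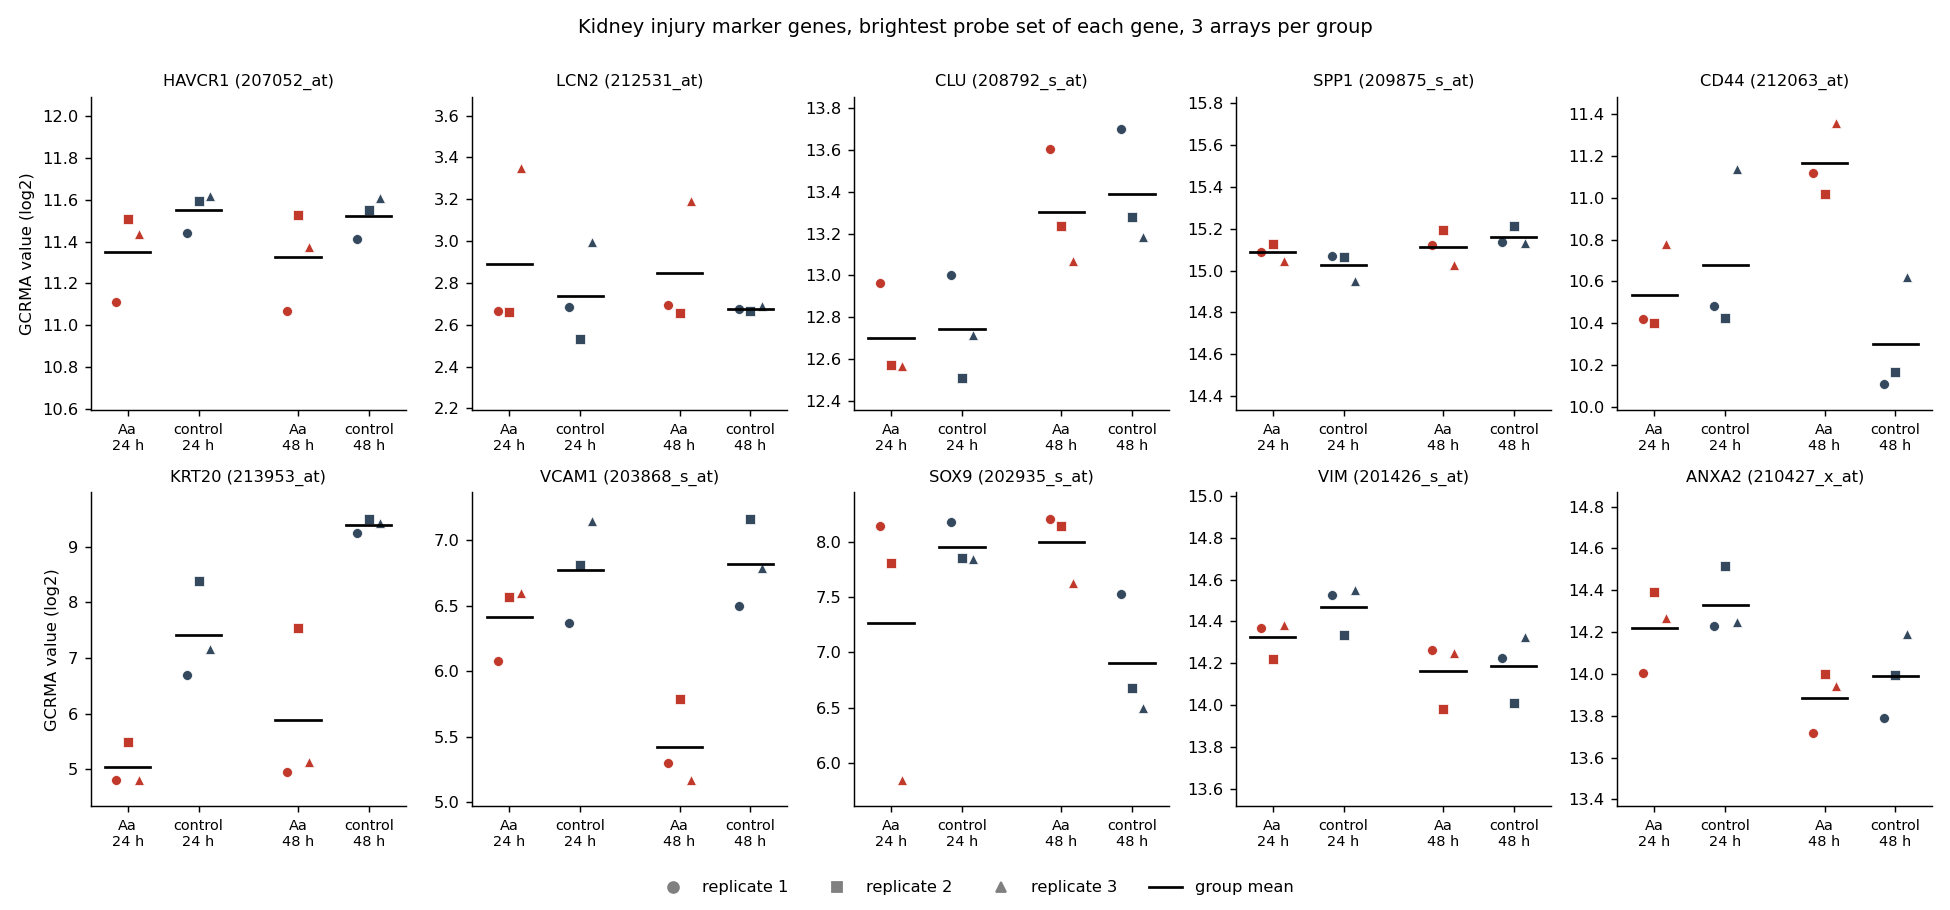
GCRMA log2 value (vertical axis, its own range in each panel) of the brightest probe set of each of the 10 marker genes in the 4 groups, Aa in red and control in dark blue. Each point is 1 array, its shape gives the replicate number, and the bar is the mean of 3 arrays. KRT20 in Aa cells lies below all control arrays of the same time, and VCAM1 in Aa cells and CD44 in control cells are the low groups at 48 h, while HAVCR1, CLU, SPP1, VIM and ANXA2 overlap between Aa and control at both times.

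**Figure D2:**
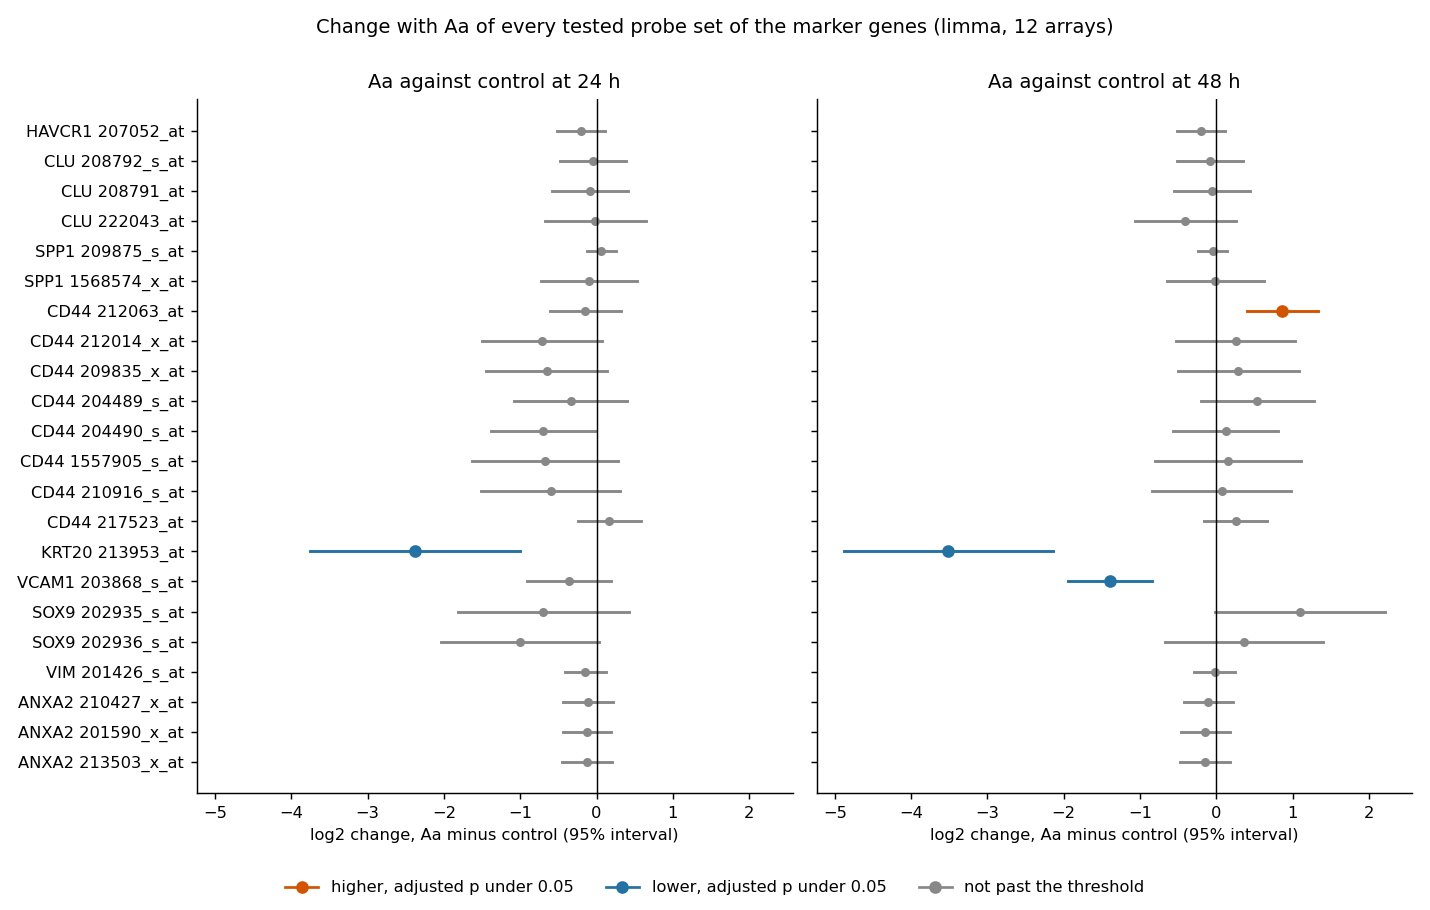
Log2 change, Aa minus control (horizontal axis), of the 22 tested probe sets of the marker genes at 24 h (left) and 48 h (right), with the 95% interval of the limma fit as a line. Orange marks a rise and blue a fall at an adjusted p under 0.05, and grey marks the rest. KRT20 is marked at both times, at -2.38 and -3.51, and CD44 (212063_at, 0.87) and VCAM1 (-1.40) at 48 h.

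The promoters of the 3 genes that changed are shown for the region in which transcription of each begins. They are the 250 bases before the annotated start, 5′ to 3′ on the gene's strand, from RefSeq on GRCh38.p14, in which 8 of the 10 marker genes had an entry. KRT20 lies on the minus strand (chr17:40885243-40885492), VCAM1 on the plus strand (chr1:100719492-100719741) and CD44 on the plus strand (chr11:35138921-35139170). Capitals mark ATAAA on the gene's strand within 40 to 20 bases before the start, where a TATA box usually lies, and, in VCAM1, GGGNTTTCC, a pattern that NF-kB proteins are known to bind, searched on both strands.
KRT20: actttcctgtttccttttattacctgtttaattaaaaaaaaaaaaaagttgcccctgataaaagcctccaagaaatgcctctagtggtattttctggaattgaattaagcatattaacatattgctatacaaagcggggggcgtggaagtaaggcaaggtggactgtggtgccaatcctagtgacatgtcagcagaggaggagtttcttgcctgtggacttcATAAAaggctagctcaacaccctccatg
VCAM1: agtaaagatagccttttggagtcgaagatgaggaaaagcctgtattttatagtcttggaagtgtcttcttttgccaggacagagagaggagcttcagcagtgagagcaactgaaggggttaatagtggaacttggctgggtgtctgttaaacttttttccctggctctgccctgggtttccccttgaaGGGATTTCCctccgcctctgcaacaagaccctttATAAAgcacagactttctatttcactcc
CD44: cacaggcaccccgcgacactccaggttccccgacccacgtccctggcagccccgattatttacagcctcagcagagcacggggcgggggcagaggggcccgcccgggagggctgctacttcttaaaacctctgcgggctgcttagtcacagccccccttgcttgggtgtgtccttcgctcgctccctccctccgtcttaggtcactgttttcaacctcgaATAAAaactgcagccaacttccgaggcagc
All 3 promoters held ATAAA in that window, at 28 to 24 bases before the start in KRT20 and VCAM1 and at 30 to 26 in CD44, as did 4.39% of 35116 promoters in the table. Only in VCAM1 was the base before it a T, while it was C in KRT20 and A in CD44. The match therefore does not show that each promoter has a TATA box. The GGGNTTTCC pattern stood once in VCAM1, at 62 to 54 bases before the start, and in 1.66% of all promoters. The KRT20 promoter had 41.2% G and C, that of VCAM1 46.0% and that of CD44 62.4%, beside a median of 58.0% over the table. These matches describe the sequence only, and the patterns did not overlap. The marker genes that were not called were not looked at one by one. The matches are therefore not shown to be particular to these 3 genes.

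KRT20 encodes keratin 20, an intermediate filament protein of gut and urothelial surface cells that is also made by injured tubule. Its probe set (213953_at) was the marker with the largest measured change at both times. At 24 h it read 4.80, 5.49 and 4.80 in Aa cells, against 6.70, 8.38 and 7.16 in control cells. After 48 h the readings were 4.95, 7.55 and 5.13 in Aa cells, against 9.24, 9.51 and 9.42 in control cells. The Aa arrays were below every control array of the same time, and replicate 2 with Aa at 48 h stood well above the other Aa arrays. KRT20 fell with Aa, by a log2 change of -2.38 at 24 h (SE 0.62, adjusted p = 0.019 in limma, 5.21-fold lower) and by -3.51 at 48 h (SE 0.62, adjusted p = 0.00182 in limma, 11.4-fold lower).

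The fall at 24 h did not hold in every setting. Its adjusted p in limma was 0.0748 when no filter on low values was applied, 0.0649 without Aa replicate 1 of 24 h, 0.0617 without Aa replicate 3 of 24 h and 0.0695 without control replicate 2 of 24 h. Without replicate 1 or replicate 3 in all groups it was 0.108 and 0.156 at 24 h, and 0.0537 and 0.0568 at 48 h. The fall at 48 h held without any single array, and its change was -4.35 without Aa replicate 2 of 48 h. In control cells KRT20 was 1.98 higher at 48 h than at 24 h, with groups that did not overlap (adjusted p = 0.199 in limma, 0.018 with the replicate block). In Aa cells it was 0.84 higher at 48 h than at 24 h, with overlapping groups (adjusted p = 0.506 in limma). The Aa effect at 48 h minus that at 24 h was -1.13 (95% interval -3.07 to 0.81, adjusted p = 0.640 in limma). Across the 12 arrays the genes with the most similar pattern were CCDC148 (r = 0.965), NKAIN4 (r = 0.964) and HERPUD1 (r = 0.957), among 10790 genes compared. These r values describe 12 arrays that share 4 groups and 3 replicate numbers.

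VCAM1 encodes an adhesion molecule that binds integrins of leukocytes and appears on tubule cells that fail to recover. At 24 h its probe set (203868_s_at) read 6.08, 6.56 and 6.60 in Aa cells, against 6.37, 6.81 and 7.14 in control cells, and the groups overlapped (-0.36, adjusted p = 0.342 in limma). After 48 h the readings were 5.30, 5.79 and 5.17 in Aa cells, against 6.49, 7.16 and 6.79 in control cells. All 3 Aa arrays of 48 h were below all controls and below all arrays of 24 h. VCAM1 fell by 1.40 on the log2 scale at 48 h (SE 0.25, adjusted p = 0.00196 in limma, 2.63-fold lower), in 3 of 3 replicate pairs. This fall passed the threshold in each of the 24 alternatives that could be fitted, with a highest adjusted p of 0.0368.

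The VCAM1 level in Aa cells was 0.99 lower at 48 h than at 24 h (adjusted p = 0.0558 in limma), while in control cells the difference over the same time was 0.04. With the replicate block the adjusted p in Aa cells was 0.00777, and it was under the threshold too with a stricter filter (0.0446), with 1 probe set per gene (0.0442) and without Aa replicate 2 of 48 h (0.0361). The Aa effect at 48 h minus that at 24 h was -1.03 (95% interval -1.81 to -0.25). Its adjusted p in limma was 0.261, and 0.038 with the block. The genes most similar in pattern over the 12 arrays were POT1 (r = 0.957), QDPR (r = 0.953) and SCFD1 (r = 0.953).

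CD44 encodes the surface receptor for hyaluronan, which rises on tubule cells under repair and has many splice forms. It had 13 probe sets, 8 of them past the filter. The brightest, 212063_at, read 11.12, 11.02 and 11.36 in Aa cells at 48 h, against 10.11, 10.17 and 10.62 in control cells. At 24 h it read 10.42, 10.40 and 10.78 in Aa cells, against 10.48, 10.42 and 11.14 in control cells. At 48 h every Aa array was above every control array, and at 24 h the groups overlapped. The probe set rose by 0.87 at 48 h (SE 0.21, adjusted p = 0.010 in limma, 1.82-fold higher), and its change at 24 h was -0.15 (adjusted p = 0.674 in limma). Without replicate 1 or replicate 2 in all groups the adjusted p at 48 h was 0.135 and 0.0624. In Aa cells 212063_at differed by 0.63 at 48 h from 24 h (adjusted p = 0.130 in limma, 0.00464 with the replicate block). In control cells it differed by -0.38 over the same time (adjusted p = 0.430 in limma, 0.0302 with the block).

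The other CD44 probe sets did not show the same picture. The 6 named 212014_x_at, 209835_x_at, 204489_s_at, 204490_s_at, 1557905_s_at and 210916_s_at, differed by -0.71 to -0.34 at 24 h and by 0.07 to 0.54 at 48 h, and none of the 6 passed the threshold. In each replicate pair at 24 h the Aa array was the lower one for all 6. From 24 h to 48 h the 6 differed by -0.80 to -0.56 in control cells and by 0.07 to 0.28 in Aa cells. None of these passed in limma, and with the replicate block all 6 passed in control cells (adjusted p of 0.00605 to 0.0197). With the replicate block all 6 fell at 24 h (adjusted p of 0.00287 to 0.0124 in limma), and at 48 h 204489_s_at rose (0.54, adjusted p = 0.000899 in limma), and the other 5 had adjusted p of 0.125 to 0.660. The suffixes in these names mark probes that can match several transcripts. The remaining one, 217523_at, differed by 0.17 and 0.25.

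**Figure D3:**
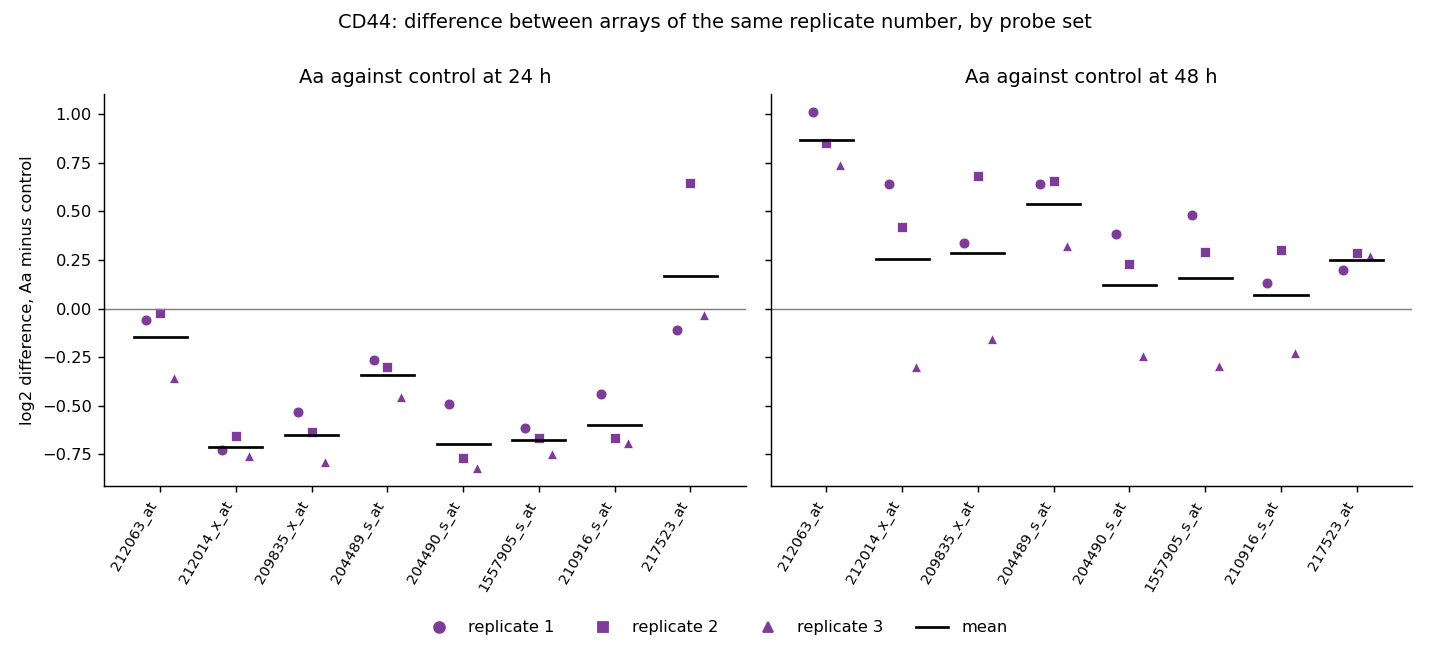
Log2 difference, Aa minus control (vertical axis), between arrays of the same replicate number for the 8 tested CD44 probe sets at 24 h (left) and 48 h (right). Each point is 1 replicate pair and the bar is their mean. At 24 h 6 probe sets lie between -0.34 and -0.71 on average, and at 48 h only 212063_at (0.87), 204489_s_at (0.54) and 217523_at (0.25) are above 0 in all 3 pairs.

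The 212063_at value minus that of 204490_s_at was taken within each array, so an offset common to all probe sets of an array cancels. Scaling before deposit that differed with the signal level would not cancel. It ran from 1.68 to 1.87 in Aa cells and from 1.13 to 1.34 in control cells at 24 h, and from 2.10 to 2.34 in Aa cells and from 1.12 to 1.72 in control cells at 48 h. The Aa arrays lay above the control arrays at both times for this pair of probe sets. At 24 h 204490_s_at was itself the only tested CD44 probe set whose Aa and control arrays did not overlap. Taken against each of the 7 other CD44 probe sets in turn, the difference was higher in all Aa arrays than in all control arrays for 3 of 7 at 24 h and 5 of 7 at 48 h, and its mean was higher in Aa cells for 6 of 7 and 7 of 7. The exception in the mean was 217523_at at 24 h, with 5.11 in Aa cells and 5.42 in control cells, and 204489_s_at overlapped at both times. All 7 differences share 212063_at, which was itself called at 48 h, so they are not 7 separate checks. A share over other probe sets of the array was not counted. The Aa effect on 212063_at was 1.01 higher at 48 h than at 24 h (95% interval 0.35 to 1.67, adjusted p = 0.202 in limma), and 7 of the 8 probe sets passed this test with the block, 212063_at with an adjusted p of 0.0106. The genes most similar to 212063_at were PRMT5 (r = 0.963), NOP58 (r = 0.950) and BIRC5 (r = 0.945). The 5 CD44 probe sets below the filter had means of 2.21 to 3.55.

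SOX9 encodes a transcription factor that is switched on in tubule cells soon after injury and during regeneration. At 24 h its brighter probe set (202935_s_at) read 8.14, 7.81 and 5.84 in Aa cells, against 8.18, 7.86 and 7.85 in control cells. Values at 48 h were 8.22, 8.15 and 7.63 in Aa cells, against 7.53, 6.68 and 6.50 in control cells. Replicate 3 with Aa at 24 h was the lowest of the 12 arrays, and at 48 h all Aa arrays were above all controls. The change at 24 h was -0.70 (adjusted p = 0.368 in limma). Without that array the log2 change was 0.018, so the lower mean rested on it.

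At 48 h SOX9 was 1.10 higher with Aa (SE 0.51, 95% interval -0.02 to 2.22), which missed the threshold with an adjusted p of 0.120 in limma. The adjusted p was 0.0319 with the replicate block, 0.0426 with only the 48 h arrays, 0.0121 without Aa replicate 3 of 24 h and 0.0477 without replicate 3 in all groups. The second probe set, 202936_s_at, read 7.99, 7.58 and 6.01 in Aa cells at 24 h, against 8.46, 8.08 and 8.05 in control cells. All Aa arrays were lower, by 1.00 on average (adjusted p = 0.155 in limma, 0.0188 with the block), but pair differences were -0.46, -0.50 and -2.05, and without Aa replicate 3 of 24 h the change was -0.41 (adjusted p = 0.480 in limma). At 48 h it differed by 0.36 (adjusted p = 0.591 in limma). In control cells both probe sets were lower at 48 h than at 24 h, by -1.06 and -1.16, with groups that did not overlap (adjusted p = 0.362 and 0.296 in limma, and 0.0867 and 0.0288 with the block).

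HAVCR1 encodes KIM-1, a phagocytic receptor that injured proximal tubule cells display and shed into urine. Its probe set (207052_at) read 11.11, 11.51 and 11.44 in Aa cells at 24 h, against 11.44, 11.60 and 11.62 in control cells. Values at 48 h were 11.07, 11.53 and 11.38 in Aa cells, against 11.41, 11.55 and 11.61 in control cells. The Aa array was the lower one in 3 of 3 replicate pairs each time, and the groups overlapped at both times. The change was -0.20 at 24 h (95% interval -0.51 to 0.12, adjusted p = 0.360 in limma) and -0.20 at 48 h (95% interval -0.51 to 0.12, adjusted p = 0.312 in limma). A rise of more than 0.12 on the log2 scale thus lay outside the interval at both times.

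LCN2 encodes NGAL, an iron-carrier-binding protein that the distal nephron and neutrophils release after injury. Its only probe set (212531_at) read 2.66, 2.66 and 3.35 in Aa cells at 24 h, against 2.68, 2.53 and 3.00 in control cells. At the later time it read 2.69, 2.66 and 3.19 in Aa cells, against 2.67, 2.67 and 2.69 in control cells. All 12 arrays were below the filter value of 4, and the groups overlapped. When all probe sets were tested without a filter, the change was 0.16 at 24 h (adjusted p = 0.665 in limma) and 0.17 at 48 h (adjusted p = 0.854 in limma). No LCN2 signal above the filter was detectable in either group.

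CLU encodes clusterin, a secreted chaperone. Its brightest probe set (208792_s_at) read 12.97, 12.57 and 12.57 in Aa cells at 24 h, against 13.00, 12.51 and 12.71 in control cells, a change of -0.04 (95% interval -0.48 to 0.39). At the later time it read 13.60, 13.23 and 13.07 in Aa cells, against 13.70, 13.28 and 13.18 in control cells, a change of -0.09 (95% interval -0.52 to 0.35). Aa and control overlapped at both times, but all arrays of 48 h were above all arrays of 24 h. The difference of 48 h from 24 h was 0.60 in Aa cells (adjusted p = 0.123 in limma, 0.0037 with the replicate block) and 0.64 in control cells (adjusted p = 0.192 in limma, 0.00475 with the block). The second probe set, 208791_at, was 0.68 higher in Aa cells and 0.66 higher in control cells at 48 h than at 24 h. The third, 222043_at, differed with Aa by -0.41 at 48 h (adjusted p = 0.332 in limma, 0.0191 with the block), lower in 3 of 3 pairs, and the last one stayed below the filter.

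SPP1 encodes osteopontin, a secreted ligand of CD44 and of integrins. Its brighter probe set (209875_s_at) read 15.09, 15.13 and 15.04 in Aa cells at 24 h, against 15.07, 15.06 and 14.95 in control cells. The 48 h arrays read 15.12, 15.19 and 15.02 in Aa cells, against 15.14, 15.21 and 15.13 in control cells. The 12 arrays spanned 14.95 to 15.21, and Aa and control overlapped at both times. The changes were 0.06 at 24 h (95% interval -0.13 to 0.25) and -0.05 at 48 h (95% interval -0.24 to 0.14). The dimmer probe set, 1568574_x_at, differed by -0.10 and -0.01.

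VIM encodes vimentin, the filament protein of mesenchymal cells that injured tubule takes up. Its probe set 201426_s_at read 14.37, 14.22 and 14.38 in Aa cells at 24 h, against 14.53, 14.33 and 14.55 in control cells, a change of -0.15 (95% interval -0.42 to 0.12). The 48 h arrays read 14.26, 13.98 and 14.25 in Aa cells, against 14.22, 14.01 and 14.33 in control cells, a change of -0.02 (95% interval -0.29 to 0.25). Groups overlapped at both times, and the other VIM probe set lay below the filter. In control cells VIM was lower at 48 h than at 24 h by -0.28 (adjusted p = 0.319 in limma, 0.0256 with the block).

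ANXA2 encodes annexin A2, a membrane-binding protein of the cell surface and cytoskeleton. The brightest of 3 tested probe sets (210427_x_at) read 14.00, 14.39 and 14.27 in Aa cells at 24 h, against 14.23, 14.51 and 14.25 in control cells. The 48 h arrays read 13.72, 14.00 and 13.94 in Aa cells, against 13.79, 13.99 and 14.19 in control cells. The 3 probe sets differed with Aa by -0.13 to -0.11 at 24 h and by -0.15 to -0.11 at 48 h, none of them past the threshold, with overlapping groups. At 48 h 210427_x_at was lower than at 24 h by -0.33 in Aa cells (adjusted p = 0.239 in limma, 0.0409 with the block) and by -0.34 in control cells (adjusted p = 0.321 in limma, 0.0457 with the block). One more probe set that the annotation gives to ANXA2 and SNU13 together was left out.

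Comparing 48 h with 24 h, 0 of the 22 probe sets passed the adjusted threshold in limma without the block, in Aa cells or in control cells. In Aa cells the length of exposure differed along with the time in culture. The same threshold was passed by 3.51% of all probe sets in Aa cells and 0.129% in control cells. At an unadjusted p under 0.05 there were 6 of 22 in Aa cells (background 19.6%) and 9 of 22 in control cells (background 14.6%). The arrays of 48 h and 24 h did not overlap for 8 probe sets in Aa cells (background 22.6%) and for 9 in control cells (background 20.6%). With the replicate block 3 rose and 3 fell in Aa cells, where 17.5% of all probe sets passed, and 4 rose and 10 fell in control cells, where 13.6% passed. In control cells the 4 that rose were KRT20 and 3 of CLU, and the 10 that fell were 7 of CD44 and 1 each of SOX9, VIM and ANXA2. In Aa cells the 3 that rose were 2 of CLU and 1 of CD44, and the 3 that fell were VCAM1 and 2 of ANXA2. The Aa effect changed with time for 0 of 22 in limma (background 0.373%). At an unadjusted p under 0.05 it did for 3 of 22, near the background of 12.7%. With the block it did for 8 (background 7.73%), of which 7 were CD44 probe sets and 1 was VCAM1.

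Related genes of injury and repair were counted on the brightest probe set of each gene, of which 22.3% passed at 24 h and 35.8% at 48 h over all 10791 genes. These shares do not apply to the counts with the block given below. With the block 39.5% of all probe sets passed at 24 h and 50.3% at 48 h, and a share by gene was not counted. Among 14 other secreted or urinary injury markers, 0 rose and 1 fell at 24 h, and 2 rose and 1 fell at 48 h, with medians of -0.03 and 0.07. With the block 2 rose and 3 fell at 24 h, and 4 rose and 4 fell at 48 h. CHI3L1, a chitinase-like glycoprotein measured in urine, fell by 0.80 at 24 h and by 1.65 at 48 h (adjusted p = 0.00398 and 4.37e-05 in limma). GDF15, a secreted stress cytokine, averaged 11.97 in Aa cells and 11.20 in control cells at 48 h, a rise of 0.76 (SE 0.16). HMOX1, the haem-degrading enzyme, rose by 0.91 (SE 0.24) at 48 h. Its adjusted p of 0.0144 in limma became 0.0537 with only the 48 h arrays, 0.055 without Aa replicate 3 of 48 h and 0.0551 without control replicate 1 of 48 h. GDF15 at 48 h lost its call without replicate 1 in all groups (0.0752), as did CHI3L1 at 24 h (0.0568) and HMOX1 at 48 h (0.194).

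Of 8 inflammatory genes, 1 rose at 24 h and 2 at 48 h, and 0 fell, with medians of 0.07 and 0.38. With the block 1 rose and 0 fell at 24 h, and 5 rose and 1 fell at 48 h. LIF, a cytokine of the interleukin-6 family, averaged 8.25 in Aa cells and 6.94 in control cells at 48 h, a rise of 1.31 (SE 0.19, adjusted p = 0.000596 in limma). Its rise of 0.58 at 24 h passed narrowly (adjusted p = 0.0498 in limma) and was lost in 14 of 25 alternatives. TNFAIP3, an inhibitor of NF-kB signalling, rose by 1.57 at 48 h (SE 0.30, adjusted p = 0.00305 in limma). The TNFAIP3 and LIF rises at 48 h passed in all alternatives run, with highest adjusted p of 0.0358 and 0.0385. CCL2 and IL6 differed by -1.43 and 1.72 at 48 h, with overlapping groups and adjusted p of 0.108 and 0.197 in limma.

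Among 13 dedifferentiation and repair genes, 0 rose and 4 fell at 24 h, and 1 rose and 4 fell at 48 h, with medians of -0.33 and -0.31. With the block 0 rose and 6 fell at 24 h, and 1 rose and 7 fell at 48 h. HBEGF, an EGF receptor ligand, had the largest measured change of these lists: it averaged 9.36 in Aa cells and 6.38 in control cells at 48 h, a rise of 2.98 (SE 0.43, adjusted p = 0.000585 in limma, highest 0.0259 over 25 alternatives). ALCAM, an adhesion molecule, averaged 10.49 in Aa cells and 11.51 in control cells at 24 h, and 10.09 in Aa cells and 11.39 in control cells at 48 h. It fell by 1.01 and 1.30, and the fall at 24 h missed the threshold without replicate 1 or 3 in all groups (0.0592 and 0.0551). DCDC2, a microtubule-binding protein, fell by 0.96 at 48 h (SE 0.17, adjusted p = 0.00197 in limma, 0.0514 without replicate 1 in all groups).

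Of 5 other keratins, 1 rose and 1 fell at 24 h, and 1 rose and 0 fell at 48 h (3 and 1 with the block). KRT80, an epithelial keratin, averaged 9.98 in Aa cells and 8.91 in control cells at 24 h, and 10.00 in Aa cells and 8.56 in control cells at 48 h. It rose by 1.07 and 1.43 (adjusted p = 0.00997 and 0.00149 in limma), at the times at which KRT20 fell, and without replicate 1 in all groups the adjusted p was 0.176 at 24 h and 0.059 at 48 h. Without replicate 3 in all groups it was 0.0588 at 24 h. KRT19 fell by 0.71 at 24 h (adjusted p = 0.015 in limma, 0.0557 without control replicate 3 of 24 h, and 0.147 and 0.0539 without replicate 1 or 2 in all groups). KRT8 and KRT18, the paired keratins of simple epithelium, differed by 0.50 and 0.35 at 48 h (adjusted p = 0.128 and 0.0742 in limma).

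Of 11 annexins and S100 proteins, 0 rose and 3 fell at 24 h, and 2 rose and 3 fell at 48 h, with medians of -0.20 and -0.20 (0 and 5, and 2 and 6, with the block). S100A10, the partner of annexin A2, differed by -0.11 and -0.20 and did not pass (adjusted p = 0.424 and 0.0951 in limma). ANXA11 fell by 0.35 and 0.60 (adjusted p = 0.042 and 0.0022 in limma), and its fall at 24 h was lost in 12 of 24 alternatives and that at 48 h without replicate 1 in all groups (0.0618). ANXA1 rose by 0.69 and ANXA4 by 0.44 at 48 h (adjusted p = 0.0164 and 0.0172 in limma). ANXA1 missed the threshold without Aa replicate 3 (0.0659) or control replicate 1 (0.0627) of 48 h, and ANXA4 without Aa replicate 1 (0.0694), control replicate 1 (0.0584) or control replicate 2 (0.0584) of 48 h. Without replicate 1, 2 or 3 in all groups the adjusted p of ANXA1 in limma was 0.132, 0.0543 and 0.0516. For ANXA4 it was 0.0524 with only the 48 h arrays, and leaving out one number from every group gave 0.215 (replicate 1) and 0.129 (replicate 2).

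Of 12 binding partners of CD44, SPP1, VCAM1 and LCN2, 0 rose and 3 fell at 24 h, and 2 rose and 1 fell at 48 h, with medians of -0.13 and -0.11 (1 and 4, and 3 and 3, with the block). HAS3, a synthase of the CD44 ligand hyaluronan, averaged 11.17 in Aa cells and 10.06 in control cells at 48 h, a rise of 1.11 (SE 0.13, adjusted p = 0.00017 in limma, highest 0.0141 over 25 alternatives). HMMR, another hyaluronan receptor, rose by 0.82 at 48 h (SE 0.16, adjusted p = 0.00285 in limma, 0.0534 without replicate 1 in all groups). ITGB5, an integrin subunit of an osteopontin receptor, fell by 0.41 at 24 h and by 0.53 at 48 h (adjusted p = 0.0267 and 0.00605 in limma), and its fall at 24 h was lost in 7 of 24 alternatives and that at 48 h without replicate 1 (0.0718) or 3 (0.0636) in all groups. ITGA4, a subunit of the integrin that binds VCAM1, differed by -0.65 at 24 h and -0.58 at 48 h and did not pass (adjusted p = 0.170 and 0.185 in limma).

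**Figure D4:**
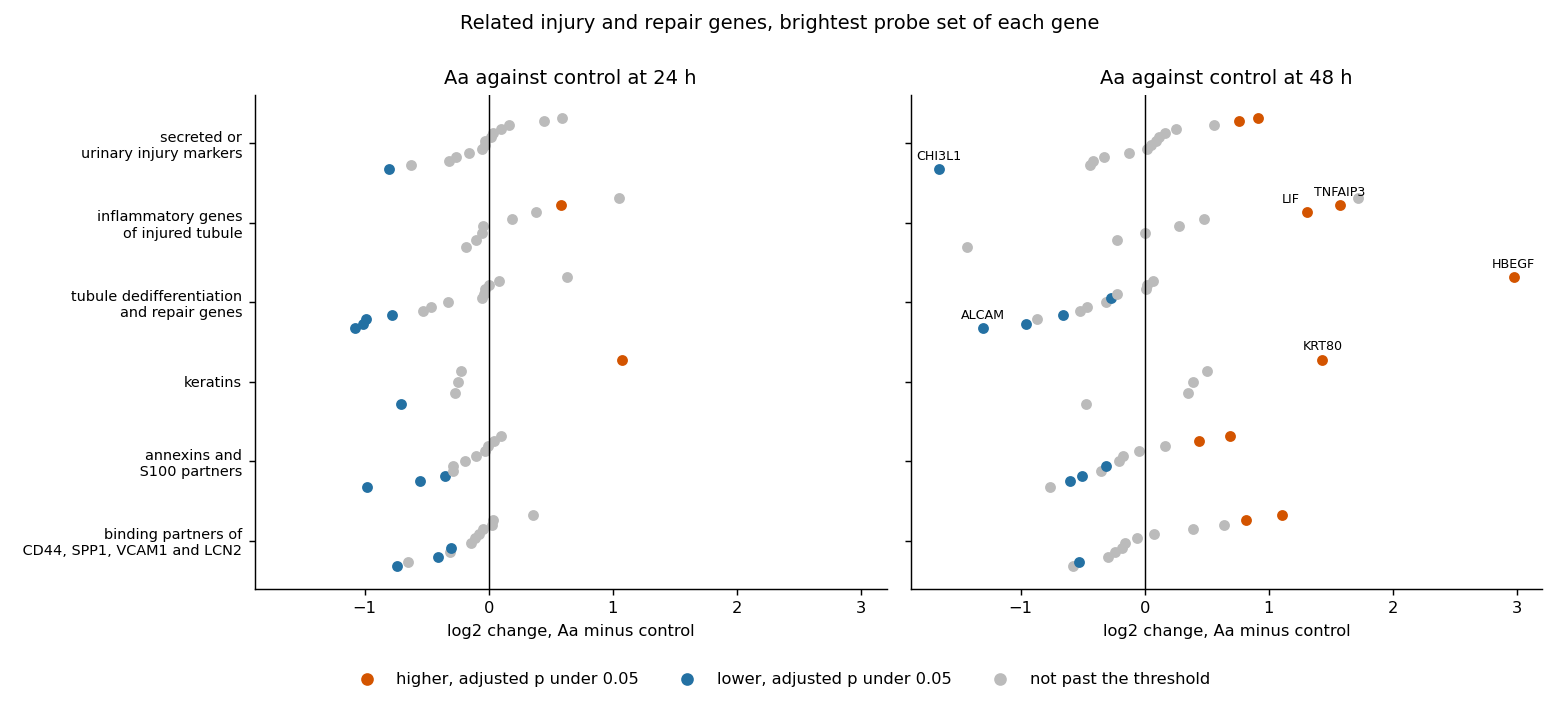
Log2 change, Aa minus control (horizontal axis), of the brightest probe set of each tested gene in 6 lists of injury and repair genes (vertical axis) at 24 h (left) and 48 h (right). Each point is 1 gene, orange where it rose and blue where it fell at an adjusted p under 0.05 in limma, and grey otherwise. Called genes changed by more than 1.2 are named. HBEGF at 2.98 at 48 h and CHI3L1 at -1.65 at 48 h lie farthest from 0 among those called.

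Some markers of the cells themselves also differed with Aa. SLC3A1 averaged 7.70 in Aa cells and 9.57 in control cells at 48 h, a fall of 1.87 (adjusted p = 0.0135 in limma). The call was lost with no filter (0.0537) and without control replicate 1 (0.0506) or control replicate 2 (0.0514) of 48 h, and without replicate 1 in all groups (0.158). The renal epithelial genes PAX8 and CDH6 fell by 0.45 and 1.48 at 48 h, 2 of 6 tested. This share of 33.3% was near the 35.8% of all genes called at 48 h. KRT8 (12.28 in Aa cells, 11.78 in control cells) and KRT18 (13.12 and 12.77) of the same list averaged higher with Aa at 48 h. EPCAM (13.05 and 13.25) and CDH1 (6.95 and 7.17) averaged lower, and none of these passed the threshold. With the replicate block 2 of the 6 rose and 2 fell at 48 h, where 50.3% of all probe sets passed. The PAX8 call was lost without Aa replicate 1 of 48 h (0.0527) and without replicate 1 (0.164) or 3 (0.131) in all groups, and the CDH6 call without replicate 1 in all groups (0.0567). The summed linear level of the renal epithelial list ran from 25355 to 29220 in Aa cells and from 31782 to 34782 in control cells at 24 h. At 48 h it ran from 25526 to 27498 in Aa cells and from 27989 to 29019 in control cells. Such a sum is carried by the brightest genes of the list, KRT18, EPCAM, CDH6 and KRT8. Of these KRT8 and KRT18 averaged higher with Aa at 48 h and CDH6 and EPCAM lower. The lower sum at 48 h therefore does not stand for the whole list. The actin control probe sets gave a 3′ minus 5′ difference, a measure of RNA integrity, of 0.68 to 0.99 in Aa cells and 0.69 to 0.90 in control cells at 24 h, and of 0.76 to 1.15 in Aa cells and 0.63 to 0.99 in control cells at 48 h. The part of these markers in the KRT20, VCAM1 and CD44 results was not tested.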

How the data were processed

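Expression was measured on 12 Affymetrix arrays, 1 for each culture's total RNA. The authors deposited GCRMA values, named as such in the submitters' processing notes, whose version is not given in the sources used here; the log2 scale of these deposited values was read from their range, 0.82 to 16.25. Background correction in GCRMA shrinks low values toward a common level, so differences of dim probe sets are less certain.

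Gene names came from the platform annotation: 41097 probe sets had 1 symbol, 1801 several and 11777 none, and 41043 symbols were brought to their current form. Probe sets with a mean of at least 4 that were not array controls, 22515 in number, were fitted with limma 3.58.1 in R 4.3.3 (4 group means, eBayes without trend, 8 residual and 2.66 prior degrees of freedom). The comparisons were Aa against control at each time, their difference, and 48 h against 24 h in each group. Tests were two-sided, with p adjusted by Benjamini-Hochberg over all probe sets and a threshold of 0.05. The fit was first tested on simulated data. Where a gene had several probe sets, the brightest is given by array and the rest by range. From each related list up to 3 called genes with the smallest p were named; IL6 and CCL2 were named after their values were seen, and KRT8, KRT18, S100A10 and ITGA4 for their roles. The members and lists were chosen with earlier results of these data known, in which KRT20 fell at both times and CD44 rose at 48 h, so these are not independent support.

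What set the biological replicates apart is not described, so a p-value reflects only how far these arrays scatter, and their number limits the precision. The labels do not say that equal replicate numbers belong together. After group means were removed, same-numbered arrays gave r of 0.36 to 0.61 over 18 pairs, and differently numbered ones r of -0.50 to -0.03 over 36 pairs. Deviations from a group mean cancel within the group, so the negative r are not separate evidence of pairing. A fit with the number as a block had been planned as an alternative. Other alternatives were no filter, a filter of 6, quantile normalization, median centring, a floor of 4, limma's trend, 1 probe set per gene, no probe sets of shared sequence, only the arrays of one time and leaving out each array. Leaving out one replicate number in all groups was added after seeing the data.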

Additional observations from a re-analysis of the deposited data

How the results depend on the processing

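Over 27 gene results and their alternatives, 601 of 648 settings kept the direction and the side of the threshold. Of the rest, 10 lost a call, 6 gained one and 31 turned the direction, and the cause of the losses was not tested. Most of the 27 were never called, and only a called result can lose a call. KRT20 lost its call in 6 of 25 alternatives at 24 h and in 2 of 25 at 48 h. At 48 h CD44 lost its call in 2 of 25 and VCAM1 in 0 of 24. The marker probe sets called at 24 h, 1 in number, were 0 without a filter (31 tested) and 8 with the replicate block, and 0 to 2 when arrays were left out: 0 without Aa replicate 1, Aa replicate 3 or control replicate 2 of 24 h or without replicate 1 in all groups, and 2, both of CD44, without replicate 3. Those at 48 h, 3 in number, were 6 with the block and 1 to 5 with arrays left out: 1 (VCAM1) without replicate 1, and 5 (SOX9, VCAM1 and 3 of CD44) without replicate 3. The change of the Aa effect gave 8 with the block, against 0, and 0 in each leave-out. Time in control cells gave 14 with the block, against 0, and 0 in each leave-out. Time in Aa cells gave 1 with the filter of 6, 1 with 1 probe set per gene and 6 with the block, against 0, and 0 to 1 when arrays were left out. The replicate block changed no call of a marker other than those given beside the results.

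Over all probe sets, 5089 of 22515 were called at 24 h. The count was 2494 of 10791 with 1 probe set per gene and 3229 without shared-sequence probe sets. It was 8884 with the block, and 1534 to 5224 with arrays left out. In the same order, 7485 of 22515 at 48 h became 4083 of 10791, 4414 and 11326 (2824 to 7514). Settings that leave out probe sets test fewer of them, so a lower count need not mean a lower share. At 24 h 2612 rose and 2477 fell, against 1924 and 1305 without shared-sequence probe sets. The change of the Aa effect, 84, became 23 without a filter, 49 with median centring, 34 without shared-sequence probe sets and 1740 with the block (0 to 198). Time in control cells, 29, became 18 with median centring, 91 with trend, 54 with 1 probe set per gene and 3057 with the block (0 to 417). Time in Aa cells, 791, became 482 without shared-sequence probe sets and 3938 with the block (0 to 1076).

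No value whose direction turned had passed the threshold. Most were near 0, except SOX9 at 24 h, which was -0.70 and turned without Aa replicate 3 of 24 h. With arrays left out the change at 24 h ran from -0.17 to 0.089 for CLU, from -0.28 to 0.081 for CD44 and from -1.13 to 0.018 for SOX9, and at 48 h from -0.24 to 0.071 for CLU and from -0.11 to 0.069 for VIM. The change of the Aa effect ran from -0.12 to 0.13 for HAVCR1, from -0.19 to 0.11 for CLU and from -0.10 to 0.14 for ANXA2, and was -0.0053 for ANXA2 with median centring (0.0054 without). KRT20 ran from -2.74 to -1.90 at 24 h and from -4.35 to -3.05 at 48 h. The number of arrays per group, 3, limits what can be called, and LCN2, below the filter on every array, has no measured direction.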
